A study of Mus musculus with 4 samples.

Results

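The Hedgehog pathway core genes examined here are Ptch1, Smo, Gli1, Gli2, Gli3, Hhip, Sufu, Boc and Gas1. They are 9 of the 18193 genes with a named probe set, a probe set being a group of short oligonucleotides on the array that together report 1 transcript. A row of the deposited table was a member if its probe set was annotated to 1 of these genes, which gave 25 probe sets of 45101. Where a gene had several probe sets, the one with the highest mean signal represented it and the others served as a check. All 9 genes lay above the level filter (log2 signal of 5.97) on all 4 arrays and were tested.

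The arrays compared 2 samples of a tumorigenic subline class, glioma initiating cell-like (GIC), with 2 of a nontumorigenic class (non-GIC). All 4 came from p53-/- C57BL/6 neural stem cells of the telencephalon at embryonic day 14.5, grown as floating spheres in serum-free medium. The cells of both classes carried pCMS-EGFP-HRasL61, a plasmid for GFP and an activated HRas, together with pBabe-neo, and were kept in neomycin and sorted for GFP. The medium of both classes held forskolin, an activator of adenylyl cyclase, as well as PDGF, bFGF and insulin, and no untransfected cells were among the 4 arrays. The sample descriptions carry a different short prefix for each array, whose meaning is not given. The labels do not say whether the arrays of a class came from the same clone or from separate cultures, and the p-values therefore reflect no more than how far these samples spread, which may be technical variation.

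Hedgehog ligands bind Ptch1, a receptor that otherwise holds the transmembrane protein Smo inactive. Active Smo, in the primary cilium, lets the Gli transcription factors escape Sufu and proteolytic processing, and Gli proteins then switch on targets that include Ptch1, Gli1 and Hhip themselves. In the embryonic brain the pathway patterns the ventral neural tube and drives progenitor division, and protein kinase A, the kinase that cAMP activates, restrains it.

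Array medians lay between 6.58 and 6.63 and no pair of arrays held identical values. Over the 13366 genes tested, 257 changed (limma, adjusted p under 0.05), which is 1.92% of them. Of the 11 neural stem and progenitor markers with a probe set, 8 lay above the filter on all arrays, among them Vim (14.50 to 14.71) and Sox2 (10.20 and 10.59 in GIC, 11.15 and 11.44 in non-GIC), and Prom1 and Sox1 lay below it on all arrays. The intermediate filament Nes fell by 2.07 (limma adjusted p = 0.0459) and the lipid-binding protein Fabp7 fell by 1.51 (limma adjusted p = 0.0258) on the log2 scale. Fabp7 passed the filter through the non-GIC arrays alone (6.58 and 6.89), and both GIC arrays held the same value of 5.23 below it. Among markers of other cell types, the neuronal Map2 fell by 2.29 (limma adjusted p = 0.0190) and the smooth muscle actin Acta2 fell by 1.71 (limma adjusted p = 0.0348). In the same lists, Pdgfra had 12.51 and 12.09 in GIC and 9.68 and 10.41 in non-GIC (difference 2.26, limma adjusted p = 0.0504). Col1a2 had a difference of 1.26 (limma adjusted p = 0.447), while Col1a1 had -2.06 (limma adjusted p = 0.364). Of 8 tested mural and fibroblast genes, 4 were above 0 and 4 below. The neuronal Tubb3 had 9.77 and 10.06 in GIC and 7.98 and 9.56 in non-GIC (difference 1.15, limma adjusted p = 0.363). The calls of Nes, Fabp7 and Map2 were lost when any 1 array was left out, that of Nes also with no level filter and with eBayes without trend, and that of Acta2 without non-GIC replicate 1 or 2; the Acta2 difference was -3.68 when probe sets that can bind several transcripts were left out. Of 11 mural and fibroblast markers, 8 lay above the filter on all arrays, with a mean signal over the list of 9.49 and 8.90 in GIC and 9.08 and 9.05 in non-GIC. Rgs5, Lum and Thy1 lay below it. The progenitor list had means of 8.24 and 8.20 in GIC and 8.70 and 8.74 in non-GIC. The leukocyte list had 5 of 8 markers below the filter on all arrays, the endothelial list 4 of 7 the oligodendrocyte list 3 of 7, the neuron list 2 of 8 and the astrocyte list 1 of 8. The markers with the highest signal in the remaining lists were Sox10 (7.66 to 7.73), Gja1 (12.49 to 13.08), Csf1r (7.26 to 7.57) and Flt1 (8.08 to 9.37). The part of these cell type markers in the values below was not tested, and in bulk RNA fewer cells of a type and less RNA per cell cannot be told apart.

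The question put to the 9 genes was whether the tumorigenic and nontumorigenic cells differ in the receptors, transducers and transcription factors of this pathway. None of the 9 members passed the limma test over all genes, against 1.92% of all genes. Before adjustment 2 of 9, Gli2 and Ptch1, had a p under 0.05, as did 17.9% of all genes. The GIC and non-GIC values did not overlap in 5 of 9 members, 3 with GIC above and 2 with GIC below, against 50.4% of all genes. The median log2 difference of the members was 0.13, beside -0.01 over all genes tested. By these counts the list did not stand apart from the rest of the array, and what follows describes its single genes. With 2 arrays in each group an exact permutation test of 1 gene cannot go below p = 0.33.

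**Figure D1:**
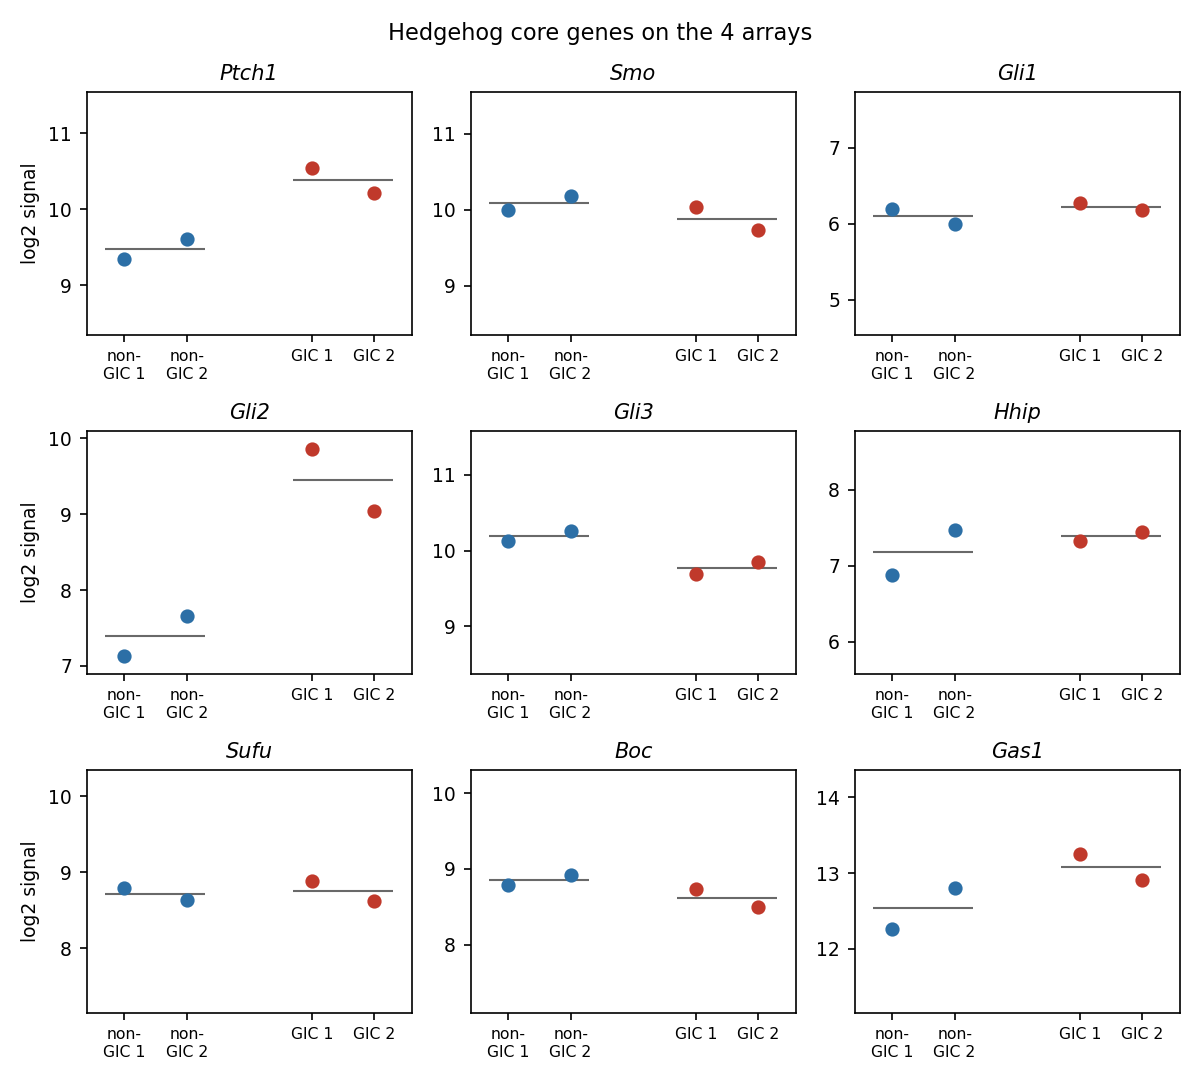
Log2 signal of the 9 genes on each array, with non-GIC in blue, GIC in red and grey lines at the group means; every panel spans the same range of log2 units. Gli2 shows the widest separation, with 7.14 and 7.65 in non-GIC and 9.86 and 9.04 in GIC, while Sufu and Gli1 are nearly flat.

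Gli2, the main transcriptional activator of the pathway in the developing nervous system, had the largest difference of the members. Its log2 signal was 9.86 on GIC replicate 1, 9.04 on GIC replicate 2, 7.14 on non-GIC replicate 1 and 7.65 on non-GIC replicate 2. Each GIC array lay at least 1.38 log2 units above each non-GIC array, a gap wider than the 0.82 between the GIC arrays and the 0.52 between the non-GIC arrays. The log2 difference was 2.05 (SE 0.35, 95% interval 1.15 to 2.96, n = 2 per group), or 4.15-fold higher in GIC, and the limma adjusted p of 0.0766 missed the threshold. It stayed above 0.05 under every alternative planned for it, from 0.0605 without GIC replicate 2 to 0.306 without non-GIC replicate 1, and the difference ranged from 1.64 to 2.46 with 1 array left out. Gli2 ranked 224 of 13366 genes by the size of its difference and 411 by p.

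The second Gli2 probe set, built from the same sequence record as the first and of a type that can bind several transcripts, had 8.51 and 7.40 in GIC and 6.85 and 7.18 in non-GIC. Its GIC values also lay above the non-GIC values, but GIC replicate 2 exceeded non-GIC replicate 2 by little. The log2 difference there was 0.94 (SE 0.40, limma adjusted p = 0.320), so the size of the Gli2 difference depended on the probe set.

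Gli3, which acts largely as the repressor of the family when the ligand is absent, lay on the other side. Its log2 signal was 9.70 and 9.85 on GIC replicates 1 and 2 and 10.13 and 10.26 in non-GIC. The groups did not overlap, and the difference was -0.42 (SE 0.17, 95% interval -0.86 to 0.02, limma adjusted p = 0.296). All 3 Gli3 probe sets had GIC below non-GIC without overlap, with differences from -0.42 to -0.22, none past the test. Gli1, the activator whose own transcription is the usual readout of Hedgehog signalling, had 6.28 and 6.18 in GIC and 6.20 and 6.00 in non-GIC on its only probe set. These values sat just above the filter level and overlapped between groups. The Gli1 difference of 0.13 had a 95% interval from -0.18 to 0.44 (limma adjusted p = 0.630), or 0.882-fold to 1.36-fold.

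Ptch1, the ligand receptor and itself a direct Gli target, was the other member with an unadjusted p under 0.05. Its log2 signal was 10.54 and 10.22 in GIC and 9.34 and 9.61 in non-GIC. The groups were 0.61 apart at their closest, more than the 0.33 and 0.27 between arrays of the same group. The log2 difference was 0.90 (SE 0.21, 95% interval 0.36 to 1.44), or 1.87-fold, with a limma adjusted p of 0.135. Of the other Ptch1 probe sets, the one past the filter had 7.52 and 7.32 in GIC and 7.24 and 7.16 in non-GIC, a difference of 0.22 (limma adjusted p = 0.507). The third lay below the filter on every array. With the mean of the 3 probe sets the Ptch1 difference was 0.41.

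Promoter sequence was looked at because the direct targets of the pathway carry Gli sites. RefSeq start-site windows of 300 bases (assembly GRCm38.p6) matched 7 of the 9 members; Gli1 and Boc had no entry. The Gli consensus GACCACCCA, searched on both strands, occurred in none of the 7 windows, exactly or with 1 mismatch, against 0.253% and 6.74% of all 32851 windows. The GC box GGGCGG, on both strands, occurred in 6 of 7, against 35.7% of all windows. The 7 windows held 56.3% to 76.3% G and C. No windows matched for that content were compared, and 7 windows are few, so the GC box count is a description only. For Gli2 and Ptch1, the members with the smallest p, the 250 bases before the start are shown 5′ to 3′ on the gene's strand, with the GC box in capitals. Both windows, chr1:119053620-119053869 and chr13:63565736-63565985, are on the minus strand and inside the annotated span of their gene, so each belongs to 1 of several possible starts.
Gli2: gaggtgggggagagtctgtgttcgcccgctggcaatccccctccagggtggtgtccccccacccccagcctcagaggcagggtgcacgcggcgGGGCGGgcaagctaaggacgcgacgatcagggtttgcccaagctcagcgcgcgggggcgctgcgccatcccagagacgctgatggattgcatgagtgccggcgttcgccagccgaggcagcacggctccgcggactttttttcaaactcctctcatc
Ptch1: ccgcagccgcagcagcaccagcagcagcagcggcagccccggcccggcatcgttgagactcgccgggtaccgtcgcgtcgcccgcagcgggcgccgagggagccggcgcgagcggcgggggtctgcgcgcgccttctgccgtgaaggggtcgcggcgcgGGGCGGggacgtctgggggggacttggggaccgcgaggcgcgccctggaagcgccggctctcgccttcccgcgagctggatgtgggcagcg
The Ptch1 window had 76.3% G and C and 47 CpG dinucleotides over its 300 bases, and the Gli2 window 67.3% and 28. The array probes do not tell which start was used, and a match or its absence in these windows says nothing about binding.

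Smo, the transducer that Ptch1 holds in check, had 10.03 and 9.73 in GIC and 10.00 and 10.18 in non-GIC, and the groups overlapped. Its difference was -0.21 (95% interval -0.71 to 0.29, limma adjusted p = 0.633). The other Smo probe set past the filter had 9.64 and 9.39 in GIC and 9.80 and 9.96 in non-GIC without overlap (limma adjusted p = 0.392). Sufu, the cytoplasmic inhibitor that binds Gli proteins, had 8.88 and 8.62 in GIC and 8.79 and 8.64 in non-GIC. Its difference of 0.03 was the smallest of the members, with a 95% interval from -0.43 to 0.50, so levels in GIC from 0.742-fold to 1.41-fold those in non-GIC lay within the error. The 3 Sufu probe sets gave differences between -0.09 and 0.03.

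Among the co-receptors that help Ptch1 bind ligand, Gas1, a GPI-anchored protein, had 13.25 and 12.90 in GIC and 12.27 and 12.80 in non-GIC. The lower GIC array exceeded the higher non-GIC array by only 0.11. The Gas1 difference was 0.54 (SE 0.24, 95% interval -0.08 to 1.17, limma adjusted p = 0.333), and it was 0.43 with overlapping groups on the second probe set. Boc, an immunoglobulin-family co-receptor, had 8.73 and 8.49 in GIC and 8.78 and 8.92 in non-GIC. The Boc difference was -0.24 (95% interval -0.69 to 0.21, limma adjusted p = 0.540), and it was -0.01 on another probe set, where the groups overlapped. Cdon, the related co-receptor outside the 9, had 11.14 and 10.47 in GIC and 10.54 and 11.21 in non-GIC, which left a difference of -0.07 (limma adjusted p = 0.937).

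**Figure D2:**
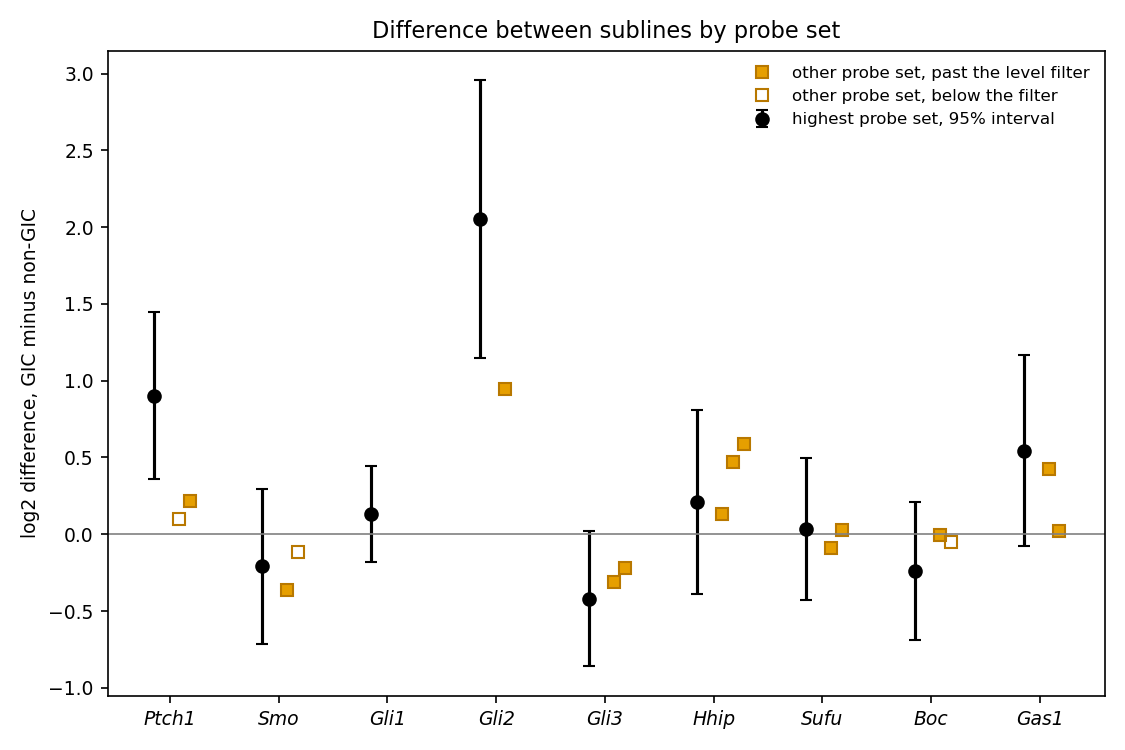
Log2 difference (GIC minus non-GIC) of each gene's highest probe set with its 95% limma interval (black), and of its other probe sets (squares; open where below the level filter). Both Gli2 probe sets lie above 0 at 2.05 and 0.94, all 3 Gli3 probe sets lie below 0, and the intervals of Gli2 and Ptch1 alone leave out 0 before adjustment.

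Over all 25 member probe sets, 22 passed the filter and none of these passed the limma test in the fit over probe sets, against 1.70% of all named probe sets tested. The groups did not overlap in 10 of the 22, against 50.2% of all. Ptch1, Gli2, Hhip and Gas1 had all of their probe sets higher in mean in GIC, Smo, Gli3 and Boc had all of theirs lower, and Sufu had 2 higher and 1 lower. These directions count all 25 probe sets, including those of Ptch1, Smo and Boc below the filter. They also count differences near 0, such as 0.02 in Gas1 and -0.007 in Boc.

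Hhip, a membrane protein that sequesters ligand and is a Gli target, varied more within non-GIC than between the groups. Its log2 signal was 7.33 and 7.44 in GIC, 6.88 on non-GIC replicate 1 and 7.47 on non-GIC replicate 2. The Hhip difference was 0.21 (95% interval -0.39 to 0.81, limma adjusted p = 0.690), and it turned to -0.08 once non-GIC replicate 1 was left out. On the other Hhip probe sets non-GIC replicate 1 had 6.10, 5.81 and 6.20, where non-GIC replicate 2 had 7.06, 6.99 and 7.25 and the GIC arrays had 6.54 to 7.47. Non-GIC replicate 1 was thus the lowest array on all 4 Hhip probe sets. Evc and Evc2, whose products form a complex with active Smo at the base of the cilium, were named after their values were seen, because the same array was low for them. Evc had 8.40 and 8.36 in GIC, 6.10 on non-GIC replicate 1 and 8.27 on non-GIC replicate 2 (difference 1.19, limma adjusted p = 0.465). Evc2 had 8.62 and 8.51 in GIC and 7.23 and 8.18 in non-GIC in the same order (difference 0.86, limma adjusted p = 0.293). The Evc genes neighbour each other on chromosome 5.

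**Figure D3:**
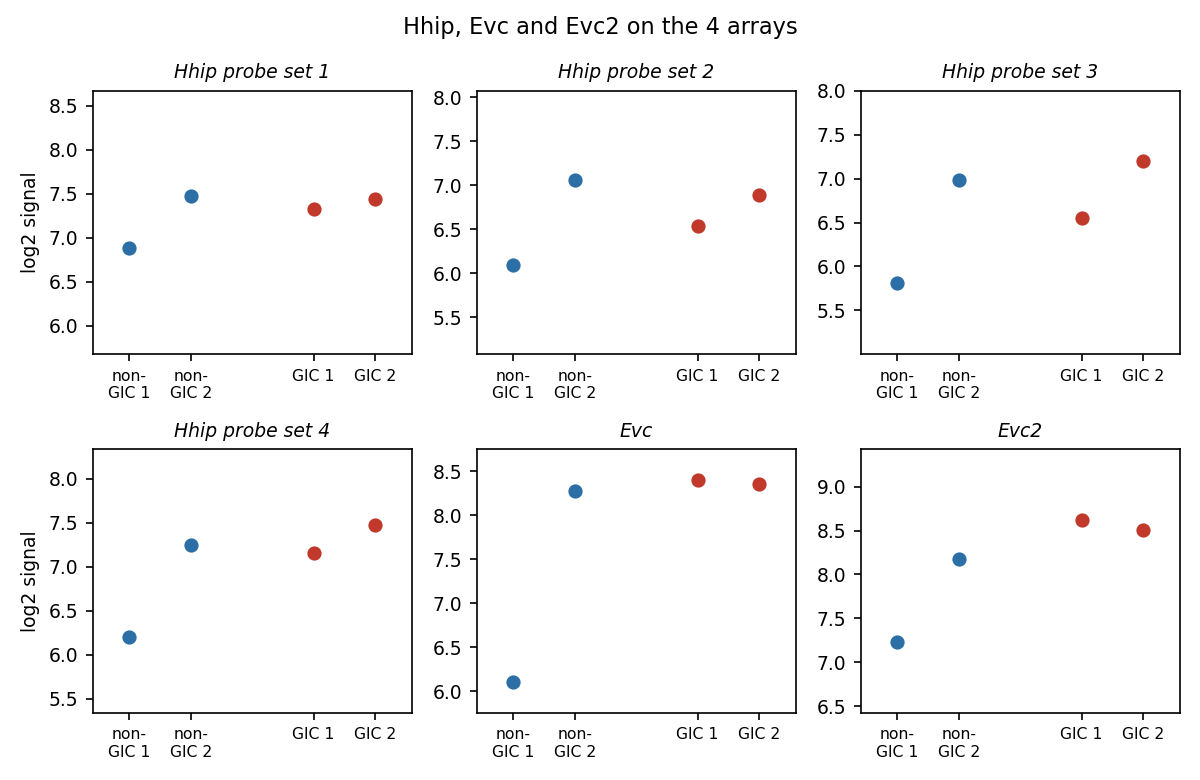
Log2 signal on each array of the 4 Hhip probe sets and of Evc and Evc2, with non-GIC in blue and GIC in red; every panel spans the same range. Non-GIC replicate 1 is the lowest point in each panel, for example 6.10 for Evc against 8.27 on non-GIC replicate 2.

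The ligands had low signals that differed little. Shh had 6.61 and 6.47 in GIC and 6.82 and 6.71 in non-GIC (difference -0.22, limma adjusted p = 0.412). Ihh had 6.22 and 6.11 in GIC and 5.99 and 6.13 in non-GIC, and Dhh had 6.64 and 6.73 in GIC and 7.00 and 6.70 in non-GIC. The largest difference among ligands and release factors was in Scube3, a secreted protein related to those that carry ligand off the cell, with 8.59 and 7.53 in GIC and 10.21 and 8.50 in non-GIC. Its groups overlapped (difference -1.29, limma adjusted p = 0.400), and the difference moved to -0.44 or -2.15 when the first or the second non-GIC array was left out, and to -1.82 or -0.76 when the first or the second GIC array was. None of the 8 tested genes of this list passed or had an unadjusted limma p under 0.05, and their median difference was -0.12.

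None of the 5 tested genes among other receptors and surface regulators passed or had an unadjusted limma p under 0.05 either. The smallest p-values there were those of Gpr161, a ciliary receptor that raises cAMP and opposes the pathway, with a difference of -0.29 (limma adjusted p = 0.456), and Mosmo, with 0.16 (limma adjusted p = 0.701).

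Before adjustment, 6 of 24 tested regulators of Smo and the Gli proteins had a limma p under 0.05, beside 17.9% of all genes. After adjustment none passed, and their median difference was 0.01. The nearest was Arrb1, a beta-arrestin that binds phosphorylated receptors including Smo, with 5.97 and 6.03 in GIC and 7.18 and 7.70 in non-GIC. Its groups did not overlap, and the difference of -1.44 (SE 0.20) had a limma adjusted p of 0.0511, which was 0.0417 with quantile normalization and 0.0480 with the mean of probe sets. That limma adjusted p was 0.130 with the replicate number as a block. It lay between 0.0514 and 0.0698 with median centring, no level filter, the other probe set choice and the other variance models. With 1 array left out the difference ranged from -1.70 to -1.18. The ubiquitin ligase Itch had 10.37 and 10.31 in GIC and 9.37 and 9.55 in non-GIC (difference 0.88, limma adjusted p = 0.0984). A catalytic subunit of protein kinase A, Prkaca, had a difference of -0.29 (limma adjusted p = 0.413), on a probe set that can bind several transcripts. Another catalytic subunit, Prkacb, had -0.03 (limma adjusted p = 0.960), and the regulatory subunit Prkar1a had -0.05 (limma adjusted p = 0.873).

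Target genes split in direction. Of 24 tested genes on the target list, which includes Ptch1, Gli1 and Hhip, 2 were called higher and 1 lower in GIC, against 1.23% and 0.688% of all genes, and 21 did not pass. The median difference was 0.07, and 7 of the 24 had an unadjusted limma p under 0.05, beside 17.9% of all genes. Prdm1, a zinc finger repressor, had 6.22 and 6.30 in GIC and 5.17 and 5.32 in non-GIC, a difference of 1.01 (SE 0.10, limma adjusted p = 0.0306). Osr1, a transcription factor of intermediate and lateral mesoderm, had 7.23 on both GIC arrays and 4.95 and 5.58 in non-GIC, a difference of 1.96 (SE 0.22, limma adjusted p = 0.0348). Prdm1 and Osr1 passed the level filter through the GIC arrays alone, with both non-GIC arrays below it, so their count is a description of genes admitted by the group where they are high. Without a level filter their limma adjusted p was 0.0357 and 0.0380. Foxd1, a forkhead factor of forebrain and kidney stroma, had 7.85 and 8.54 in GIC and 10.46 and 11.04 in non-GIC, and fell by 2.56 (SE 0.33, limma adjusted p = 0.0459). The 3 calls were all lost without GIC replicate 1, without GIC replicate 2 or without non-GIC replicate 1, and Osr1 alone was called without non-GIC replicate 2. The filter at the 60th percentile, at which Prdm1 and Osr1 are not tested, left Foxd1, and eBayes without a trend left Osr1.

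Among the targets that mark ventral neural progenitors, Nkx2-2 and Olig2 lay below the filter on every array and were not tested, with 3.43 to 3.69 for Nkx2-2 and 3.23 to 3.44 for Olig2. Nkx6-1 had 6.51 and 6.67 in GIC and 6.84 and 6.73 in non-GIC (limma adjusted p = 0.492). The growth-related target Mycn had a difference of -0.01 (95% interval -0.38 to 0.36). Ccnd2, the cyclin D2 gene, and Foxc2 are given after their values were seen: Ccnd2 had 6.51 and 7.42 in GIC and 8.23 and 12.06 in non-GIC, and Foxc2 had 7.80 and 8.83 in GIC and 5.63 and 6.87 in non-GIC. Their differences of -3.18 and 2.06 were larger than that of Gli2, but the wide spread within a group left limma adjusted p at 0.302 and 0.161.

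Of 40 tested genes of the primary cilium, the organelle in which Smo acts, none passed; 27 had a difference above 0, against 48.5% of all genes, with a median of 0.13. The mean signal over the list was 8.74 and 8.54 in GIC, 8.27 on non-GIC replicate 1 and 8.58 on non-GIC replicate 2, so non-GIC replicate 1 was the lowest array and non-GIC replicate 2 lay above GIC replicate 2. Without non-GIC replicate 1, a setting added after seeing the data, 19 of 40 were above 0 and the median was -0.02. Over all genes that setting gave 51.1% above 0 and a median of 0.007. The cilium count was 32 of 40 without non-GIC replicate 2, 25 without GIC replicate 1 and 30 without GIC replicate 2. The medians were 0.31, 0.08 and 0.23 in that order, so the tilt was lost only without non-GIC replicate 1. With all arrays kept, 11 of 40 had a p under 0.05 before adjustment, beside the 17.9% of all genes. The smallest p-values were those of Ift52, a subunit of the intraflagellar transport particle, with 10.34 and 10.12 in GIC and 9.08 and 9.27 in non-GIC (difference 1.06, limma adjusted p = 0.0788), and Kif3b, a motor subunit of anterograde transport, with 10.12 and 9.85 in GIC and 8.75 and 9.09 in non-GIC (difference 1.07, limma adjusted p = 0.101). Ift52, Kif3b and Itch all lie on chromosome 2. The 50 tested genes around each on that chromosome had a median difference of 0.27 for Ift52, 0.15 for Kif3b and 0.40 for Itch, with 34, 35 and 42 of 50 above 0. Over all tested genes of chromosome 2 the median was 0.05. The part of position in the values of Ift52, Kif3b and Itch was not tested.

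**Figure D4:**
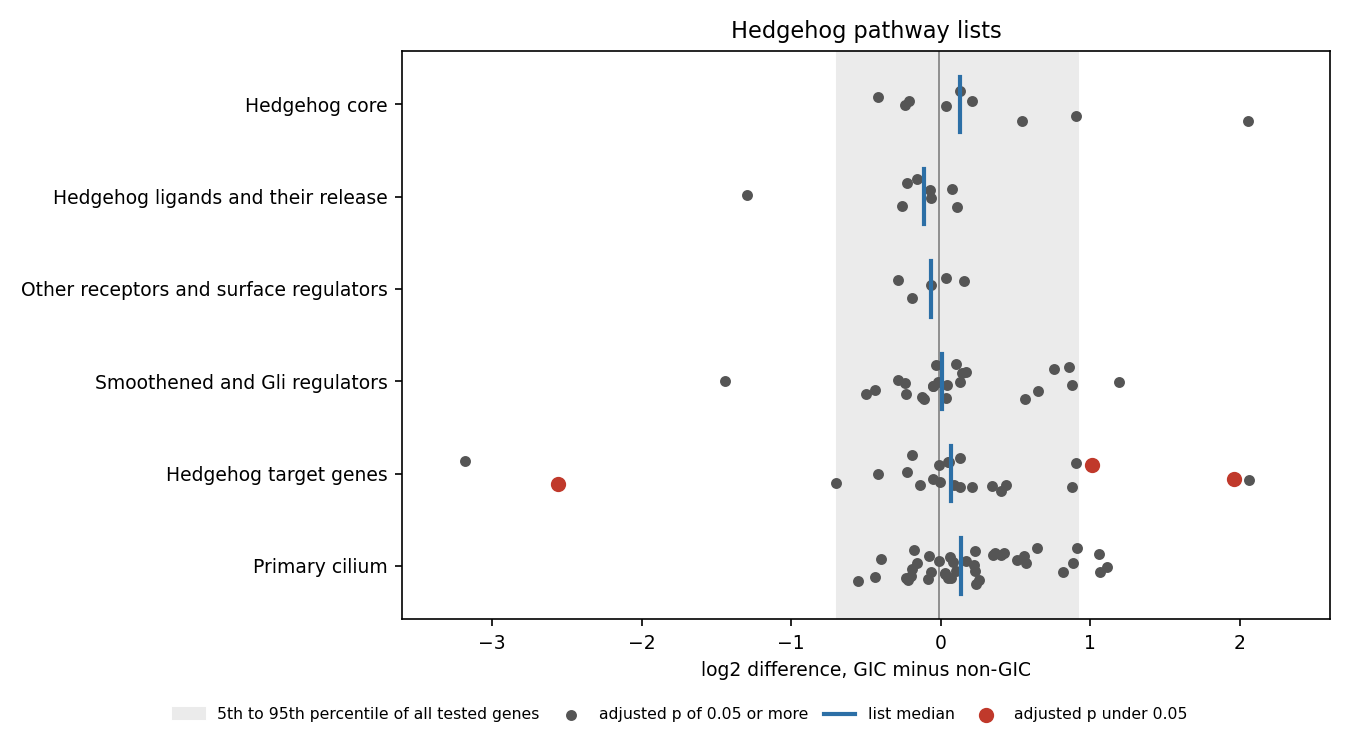
Log2 difference (GIC minus non-GIC) of every tested gene on each pathway list, with the list median as a blue bar and genes past the limma test in red; Ptch1, Gli1 and Hhip stand on the core and the target list. The thin grey line marks the median of all tested genes (-0.01) and the grey band their spread, from the 5th to the 95th percentile (-0.70 to 0.92); Gli2 at 2.05 is the core gene outside it, and the 3 red points are the targets Prdm1, Osr1 and Foxd1.

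The neighbours of the members were described in the same way; Gli2 and Ptch1 already had the largest differences of the members, so a high rank in their windows follows from that. Gli2 on chromosome 1 had the second highest difference in a window of 51 tested genes whose other 50 had a median of -0.08. Ptch1 on chromosome 13 had the highest in its window, with a median of 0.08 for the other 50. Smo on chromosome 6 was in the middle of its window, ranked 27 of 51, where the median of the neighbours was -0.19, close to its own -0.21. Gli1 on chromosome 10 likewise ranked 24 of 51, with a neighbour median of 0.12 beside its own 0.13. Over all tested genes of the chromosome, the median was -0.20 for chromosome 6 and 0.17 for chromosome 10. The window medians of Smo and Gli1 lay near these chromosome medians, and the part of position was not tested. Of the remaining members, Gas1 ranked 6, Hhip 8, Sufu 29, Boc 41 and Gli3 48 of 51.

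The 5 tested genes whose deviations over the 4 arrays lay nearest to those of Gli2 were Mtus1, Irgm1, Pygb, Comp and Cd1d1, at root mean square distances of 0.06 to 0.10 log2 units. In each, GIC replicate 1 exceeded GIC replicate 2 and non-GIC replicate 2 exceeded non-GIC replicate 1, as in Gli2. Their differences ranged from 1.89 to 2.15. Mtus1 had a limma adjusted p of 0.0483, but its non-GIC values of 5.04 and 5.48 lay below the level filter, which it passed through the GIC arrays alone. With 4 arrays this likeness is a description only.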

How the data were processed

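Gene expression was measured on 4 Affymetrix arrays, 2 GIC and 2 non-GIC; per the labels, total RNA was biotin-labelled by in vitro transcription with the One-Cycle procedure. The authors deposited log2 signals, 1 for each probe set on each array (2.75 to 15.12). Base and scale were read from the values. Array medians were near-equal (6.58 to 6.63), so the values appear to have been normalized. How background was corrected and probes were summarised and normalized was not given in the sources used here. Precision is limited by the number of arrays.

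Probe sets were named from the platform annotation, with symbols updated by Entrez identifier (34741 of the 34945 with 1 symbol). Probe sets with several symbols (932), unnamed ones (9160) and controls (64) were left out. Genes with 2 or more arrays above the 40th percentile (5.97) were tested. Differences (GIC minus non-GIC) were fitted over all 13366 genes with limma 3.58.1 in R 4.3.3 (lmFit, eBayes with trend; 2 residual and 2.72 prior degrees of freedom), two-sided, with Benjamini-Hochberg adjustment at 0.05; the procedure was tested on simulated data. Lists were described, not tested.

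Named genes were the 9 members, list genes past the threshold (up to 4 a list, otherwise the 2 smallest p), the ligands, Cdon, called markers, the marker with the highest signal in each list and the 5 genes nearest to Gli2. Evc, Evc2, Ccnd2, Foxc2, Prkaca, Prkacb, Prkar1a, Mycn, Nkx2-2, Nkx6-1, Olig2, Pdgfra, Col1a1, Col1a2 and Sox2 were added after their values were seen. The scan of neighbours, ordered by assembly GRCm38.p6, was also added then. The members and lists were chosen with earlier results of these data known. Alternatives were the replicate block, quantile normalization, median centring, other filters and probe set choices, eBayes without trend or robust, and leaving out each array. Figures used matplotlib 3.10.9.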

Additional observations from a re-analysis of the deposited data

How the results depend on the processing

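No member passed the test with the replicate block, the other normalizations, filters, probe set choices and variance models, or with any 1 array left out, and the median difference of the members ranged from 0.03 to 0.17 when 1 array was left out. The count of changed genes over the array was 12 to 188 with 1 array left out, and 29 with the replicate number as a block. The numbers are not stated to pair the samples, and deviations of same-numbered arrays correlated at -0.32 over genes. A block with crossed numbers, chosen after seeing the data, gave 685 changed genes and 1 member past the threshold, Gli2. Arrb1 had a limma adjusted p of 0.0304 there. The crossed block was picked because of that correlation and takes up spread within the groups. The SE of Gli2 went from 0.35 to 0.16 with it, so these calls are no support for either gene. With the replicate block none of the 3 target calls or 4 marker calls passed (limma adjusted p 0.0802 to 0.127). Sufu turned to -0.0095 with the mean of its probe sets. With 1 array left out, differences ranged from -0.10 to 0.17 for Sufu, from -0.085 to 0.51 for Hhip and from -0.40 to 0.27 for Cdon. Of 125 values of the members under alternatives, 4 turned sign, of Sufu and Hhip, and the cause was not tested. The promoter count of Gli motifs stayed at 0 with 1 mismatch. With 7 windows and a match in only 6.74% of all windows, that count says little. Leaving out an array leaves a lone one, whose spread is taken to equal that of the other group. Signals near the filter level, as for Gli1, the ligands and Arrb1 in GIC, can understate a difference.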
